A study of Mus musculus with 5 samples.

Results

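The regions described here are 1193 distal H2A.Z regions whose average signal was lower in the TAC library than in the sham library. They were chosen from the 31098 regions of the deposited H2A.Z table by 3 conditions on each region: no CpG island, no listed gene whose start lay within 1000 bp of the region's centre or under the region, and an average signal, with 1 added, that was lower in TAC than in sham by more than 1.5-fold. The rounded log2 value used as the limit leaves out regions at exactly 1.5-fold, here and wherever 1.5-fold is named. The last condition was read from the same libraries that are described below. The values that chose the regions are therefore given as a description only, and no test was made on them. Of the 18135 distal regions, the 1193 make up 6.58%, a share that the threshold itself sets; it was 3.92% over all H2A.Z regions and 0.193% over those that are not distal.

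Chromatin was immunoprecipitated and sequenced from whole hearts of male C57BL/6 mice aged 12 weeks. The TAC hearts had been under transaortic coarctation, in which a constricted aorta raises the pressure against which the left ventricle pumps, for 4 days and are labelled hypertrophied. The sham hearts had a sham operation and are labelled normal. Each condition had 1 library with an antibody to H2A.Z and 1 with an antibody to ANP32E, and 1 input library from pooled hearts completed the 5. The number of hearts per ChIP library is not stated. With 1 library per condition there is no replicate check, no p-value is given, and every difference below is a difference between those libraries. The scaling of the signal to sequencing depth is not stated either, so depth is unknown. Over all regions the median average H2A.Z signal was 15.7 in TAC and 15.7 in sham.

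H2A.Z is a variant of histone H2A that replaces the canonical protein in nucleosomes at promoters, enhancers and other open chromatin. It is placed there by remodelling complexes of the SWR1 family, and ANP32E is a chaperone that takes it out again. At distal sites it commonly accompanies enhancers, many of which are used in one cell type only. A whole heart holds cardiomyocytes, endothelial cells, fibroblasts, smooth muscle and blood cells, and in such a mixture a loss of cells of one type cannot be told apart from less H2A.Z in each cell. Distal H2A.Z regions were listed for 23 of 42 sarcomere genes, 19 of 29 endothelial genes, 5 of 27 leukocyte genes and 3 of 14 liver genes, so the table holds muscle and vessel genes more widely than liver genes.

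Of the 1193 regions, 30 (2.51%) nevertheless overlapped the window from 250 bases before to 50 bases after a start annotated by RefSeq. The share was 3.57% among the 448 distal regions that were higher in TAC by 1.5-fold and 7.09% among the 16494 other distal regions. The 30 regions held 33 such windows, of which 27 belonged to long noncoding RNAs and 6 to coding genes, and no miRNA hairpin lay under any of them. Sequences of 5 windows follow, because they are the DNA that can be read at these regions from the reference used here. They stand for an alternative start inside a coding gene (Ppp1r10, Nup93, Mtus2), for the noncoding RNA under the strongest region within Tmem108 (Gm46129), and for the one under the region farthest upstream of Ankrd1 (Gm32027). They are RefSeq sequences on GRCm38.p6, written 5′ to 3′ on the strand of the transcript, at chr17:35919022-35919321, plus strand, chr8:94266597-94266896, plus strand, chr5:148264967-148265266, plus strand, chr9:103720831-103721130, plus strand, and chr19:36264144-36264443, minus strand. Capitals mark matches to the motifs named after them.
Ppp1r10: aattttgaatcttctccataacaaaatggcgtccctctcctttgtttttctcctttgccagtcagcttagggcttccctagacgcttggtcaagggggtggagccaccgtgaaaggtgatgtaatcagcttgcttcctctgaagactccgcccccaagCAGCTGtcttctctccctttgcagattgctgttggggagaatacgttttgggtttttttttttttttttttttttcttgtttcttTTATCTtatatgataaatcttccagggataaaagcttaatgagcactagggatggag
Nup93: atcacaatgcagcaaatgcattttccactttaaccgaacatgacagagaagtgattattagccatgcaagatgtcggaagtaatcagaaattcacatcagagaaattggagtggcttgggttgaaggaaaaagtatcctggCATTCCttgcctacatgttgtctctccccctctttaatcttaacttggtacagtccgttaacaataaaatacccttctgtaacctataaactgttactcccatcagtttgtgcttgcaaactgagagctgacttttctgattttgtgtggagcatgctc
Mtus2: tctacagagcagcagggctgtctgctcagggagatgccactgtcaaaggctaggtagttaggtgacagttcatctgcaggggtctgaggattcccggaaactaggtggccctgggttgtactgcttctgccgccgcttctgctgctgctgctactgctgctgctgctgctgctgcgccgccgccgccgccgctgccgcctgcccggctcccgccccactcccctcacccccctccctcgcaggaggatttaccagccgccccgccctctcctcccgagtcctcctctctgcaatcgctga
Gm46129: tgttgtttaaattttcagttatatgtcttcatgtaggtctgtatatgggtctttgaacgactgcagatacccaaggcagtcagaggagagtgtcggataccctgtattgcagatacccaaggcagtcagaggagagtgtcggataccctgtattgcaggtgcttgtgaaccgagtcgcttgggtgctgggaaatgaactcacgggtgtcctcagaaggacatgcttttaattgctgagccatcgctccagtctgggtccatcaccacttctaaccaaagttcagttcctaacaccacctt
Gm32027: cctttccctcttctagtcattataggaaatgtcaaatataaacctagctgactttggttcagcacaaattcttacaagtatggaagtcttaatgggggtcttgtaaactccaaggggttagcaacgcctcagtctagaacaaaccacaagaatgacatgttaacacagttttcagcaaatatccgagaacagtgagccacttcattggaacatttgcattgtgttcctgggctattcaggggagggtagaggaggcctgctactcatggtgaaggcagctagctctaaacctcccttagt

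The capitals are an E-box and a GATA match, in that order, in the Ppp1r10 window and a TEAD match in the Nup93 window, and the other windows have none. The Gm46129 and Gm32027 windows held 7 and 2 CpG dinucleotides, and the Mtus2 window, at 65.3% G and C, held 17. Over the 33 windows the median G and C content was 47.0% with 4 CpG dinucleotides, against 52.7% and 7 over all 32851 RefSeq start windows. The motifs were searched on both strands. The GATA hexamer AGATAA was in 5 of the 33 windows (15.2%) and in 11.2% of all windows. The E-box CAGCTG was in 6 (18.2%) against 16.3%, and the NKX2-5 site CACTTAA in 3 (9.09%) against 2.41%. The TEAD site CATTCC was in 2 (6.06%) against 14.7%, and the estrogen-related receptor site AAGGTCA in 2 against 4.72%. No window matched the MEF2 site (3.69% of all windows), the AP-1 site TGANTCA (7.81%), the ETS site CCGGAAG (8.86%) or the nuclear factor I palindrome (0.0365%). Several windows overlap or share a region, the counts are small, and a match is a run of letters, not a bound site.

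The 1193 regions were short, and their TAC signal was low by the choice of the set. Their median length was 2052 bp (25th to 75th percentile 1584 to 2786 bp), against 2758 bp (1954 to 4191 bp) for the other distal regions, and 39 of them (3.27%) exceeded 5000 bp, against 2866 of the others (17.4%). The median of their average signal was 7.43 in TAC and 12.7 in sham, and for the other distal regions it was 12.8 in TAC and 13.1 in sham. In sham their median thus lay close to that of the other distal regions. This follows in part from the choice of the set, as 954 of the 1193 had been called in sham alone and 0 in TAC alone. The median peak height, the highest point of signal within a region, was 15 in TAC and 24 in sham for the 1193, and 28 in TAC and 27 in sham for the other distal regions. Distal regions that were higher in TAC mirrored this, with a median length of 1809.5 bp and peaks of 25 in TAC and 15 in sham.

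**Figure D1:**
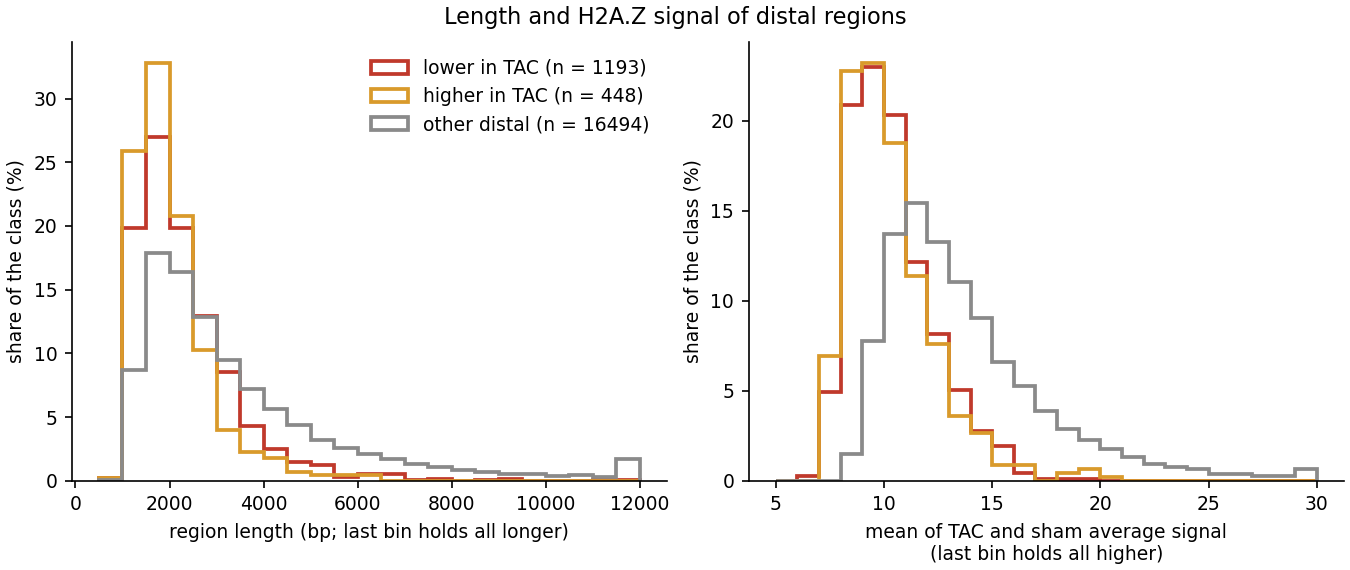
Distribution of region length (left, bp) and of the mean of TAC and sham average signal (right) as a percentage of each class, for the 1193 distal regions lower in TAC, the 448 higher in TAC and the 16494 others. Both outer classes sit at the short and weak end, with median lengths of 2052 and 1809.5 bp against 2758 bp.

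Members were concentrated among weak regions. Because strength here is the mean of the TAC and sham values that also chose the members, a low TAC value itself moves a region towards the weak end. Distal regions were divided into 10 equal groups, or deciles, by the mean of their TAC and sham signal, and 515 of the 1815 in the weakest decile (28.4%) were lower in TAC by 1.5-fold, whereas 1 of 1814 in the strongest (0.0551%) was. The share of regions higher in TAC was likewise 11.8% in the weakest decile and 0.221% in the strongest, so that in the weakest decile lower and higher calls both stood far above their shares of 6.58% and 2.47% over all distal regions. In the weakest decile the median length was 1623 bp for regions lower in TAC and 1617 bp for the others. In each of deciles 2 to 7 it was also greater for members, with 2081 bp against 1836 bp in decile 2 and 2891.5 bp against 2527 bp in decile 5. In deciles 8 to 10, which held few members, it was smaller, with 3340 bp against 4250 bp in decile 9 (10 members). At like mean signal, members were therefore not shorter in deciles 1 to 7. An interval had been called in the sham library alone for 954 of the 1193 (80.0%) and in both libraries for 239 (20.03%), while 68.6% of the other distal regions were called in both. The peak height put 596 of the 1193 (49.96%) past the same threshold. A further 59, with peaks at exactly 1.5-fold (within 1e-09 on the log2 scale), were not counted. In 12 regions (1.01%) the TAC peak stood above the sham peak. The average and the peak of a region thus placed many of them on different sides of the threshold.

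**Figure D2:**
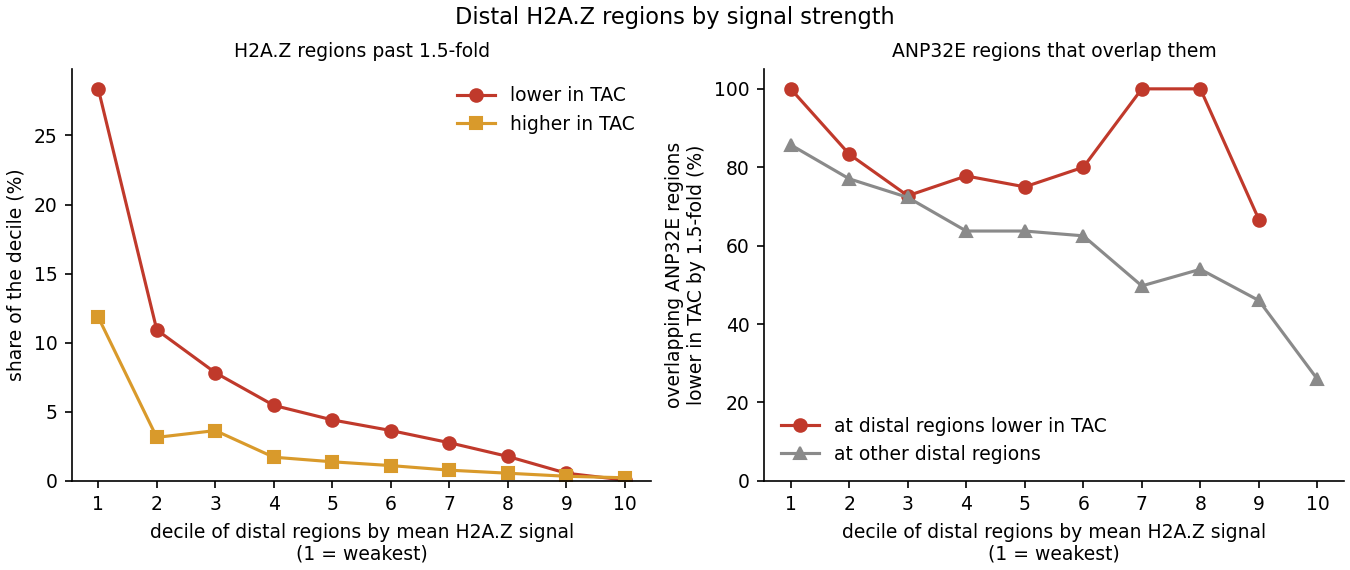
Left, percentage of distal H2A.Z regions lower or higher in TAC by 1.5-fold in each decile of mean signal (1 = weakest); right, percentage of the overlapping ANP32E regions that were lower in TAC by 1.5-fold. Lower H2A.Z regions fall to 0.0551% in the strongest decile, against 28.4% in the weakest, and ANP32E regions at other distal regions are lower in 85.7% of the weakest decile and 25.9% of the strongest.

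The strongest regions of the set belonged to genes of varied function. The highest mean signal was 5.56 kb beyond Gata5, which encodes a transcription factor of heart development, at chr2:180316709-180319531, with an average signal of 14.9 in TAC and 23.3 in sham. The next lay 4.04 kb from Mr1, an antigen-presenting molecule, with 14.3 in TAC and 22.4 in sham, and within Fam179a (Togaram2) with 13.7 in TAC and 21.9 in sham. Within Tmem108, a membrane protein gene, the region at chr9:103718756-103722587 had 12.4 in TAC and 20.8 in sham. The other 6 of the 10 strongest lay within Ift43 and Ccdc146, which act in cilia, Fkbp5, a glucocorticoid-induced co-chaperone of HSP90, Snx30, a sorting nexin, Hipk2, a nuclear kinase, and Farp1. All 10 had been called in both libraries, unlike most of the set. Their peaks ranged from 28 (Tmem108) to 41 (Mr1) in TAC and from 43 (Snx30) to 56 (Ccdc146 and Fkbp5) in sham.

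The longest region, of 11660 bp, lay 24.8 kb from Neo1, the gene of the receptor neogenin, at chr9:59061386-59073046, and had 10.4 in TAC and 16.4 in sham. A region of 11001 bp lay beside 1110002E22Rik, one of 9340 bp within the predicted locus LOC101055971, and one of 9017 bp 39.1 kb from Actr3, a subunit of the actin-nucleating Arp2/3 complex. Those within Ccdc146 (8948 bp) and Slit3, a secreted guidance factor (7715 bp), completed the 6 longest. These long regions were again called in both libraries. At the other end of the scale, the regions just past the threshold were in Mgmt, with 11.4 in TAC and 17.5 in sham, near Adpgk, with 11.3 in TAC and 17.5 in sham, and in Taf3, with 8.92 in TAC and 13.9 in sham. Just outside it were a region near Ptprg with 8.40 in TAC and 13.1 in sham, one in Acsl6 with 10.2 in TAC and 15.8 in sham, and one in Csrnp3 with 8.45 in TAC and 13.2 in sham. Those of Ptprg and Acsl6 were at exactly 1.5-fold, the only 2 such distal regions. These 6 regions were alike in strength on either side of the line.

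The 1193 regions lay inside listed genes more often than other distal regions did. By the table's own annotation 609 (51.0%) were within a gene, against 40.6% of the distal regions higher in TAC and 41.6% of the others. The flank of a listed gene held 118 (9.89%), against 18.1% of the others, and 466 (39.1%) had no listed gene, against 40.3%. The excess within genes was also present among the weaker 50% of distal regions, at 51.3% against 39.6% of the higher and 41.5% of the other regions. Of the members called in both libraries, 46.0% were within a gene. The share for other distal regions called in both is not given here, so no excess can be read from it. The 1193 also sat farther from islands and neighbours than the other distal regions, as did the regions higher in TAC. The median distance to the nearest H2A.Z region over a CpG island was 81009 bp, against 59757 bp for the regions higher in TAC and 46434 bp for the other distal regions, and 207 (17.4%) were more than 100 kb from any RefSeq coding gene, against 13.8% of the higher and 9.91% of the other regions. The nearest H2A.Z region of any kind was at a median of 9924 bp, against 12446 bp for the higher and 6186.5 bp for the other regions.

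By chromosome, the share of distal regions that were lower in TAC ranged from 3.57% (6 of 168) on chromosome X and 3.83% (45 of 1176) on chromosome 11 to 8.61% (70 of 813) on chromosome 12 and 8.86% (113 of 1275) on chromosome 1. Most near neighbours of members were not members, but the share that were was above that elsewhere. Adjacent distal regions within 50 kb were counted on each side of each region, so that 1 region can count more than once. No lower limit was set on the gap, here or for the runs below, so neighbours can nearly touch. Members downstream of Parva did so, at chr7:112598290-112600175 and chr7:112600188-112601722. Whether such neighbours are pieces of 1 broader region was not tested. Beside members, 256 of 1266 such places (20.2%) held a member. The share was 4.75% beside other distal regions and 1.97% (9 of 457) beside regions higher in TAC. Regions higher in TAC likewise adjoined one another in 13.1% of such places. Joined wherever the gap was at most 50 kb, the 1193 fell into 876 single regions, 114 pairs and 26 runs of 3 or more, which held 89 regions (7.46%). In 11 of the 26 runs every H2A.Z region in the span was a member, and 13 runs had no listed gene.

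The run with the most members, 6 of 8 distal regions, covered 40.1 kb at chr1:75997697-76037839, and its nearest coding gene, Slc4a3, an anion exchanger of the heart, was 438 to 477 kb away. Its 6 regions had average signals of 4.68 to 9.69 in TAC and 10.5 to 15.3 in sham. The second lay within Sorbs2, described below. The third was the most compact of the first 6, with 4 regions in 15.2 kb at chr9:77615025-77630254, 6.48 to 17.9 kb upstream of Klhl31, a kelch-family gene of muscle. All 4 H2A.Z regions in that span were members, at 6.84 to 10.2 in TAC and 11.6 to 16.5 in sham. A run of 4 on chromosome 18 lay 15.1 to 20.4 kb from Myot and Npy6r, of which Myot encodes the Z-disc protein myotilin, at 4.50 to 8.10 in TAC and 10.2 to 12.7 in sham. The run on chromosome 1 beside C730036E19Rik held 4 regions at 5.32 to 9.69 in TAC and 10.1 to 16.1 in sham, and the one within Myo5b, a motor of vesicle recycling, 4 at 6.23 to 7.66 in TAC and 10.7 to 14.2 in sham. In each of these 6 runs the lowest sham value was above the highest TAC value. That separation follows in part from the choice of the members.

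Sorbs2, which encodes an adaptor of the Z-disc and the intercalated disc, was the gene with the most members, 5 of its 11 distal regions. They lay 89.1 to 144 kb from the gene's start, at 5.78 to 9.45 in TAC and 11.3 to 14.7 in sham. Of the 12 H2A.Z regions drawn for this locus, 9 had a ratio below 0, and the one farthest from the start was higher in TAC, with a log2 ratio of 0.60. No ANP32E region was called there. Tmem108 held 4 members of 10 distal regions and Myo5b 4 of 8. A total of 13 genes held 3 members or more, and the other 7 named here had 3 each. All 3 distal regions were members in Fstl4, a follistatin-like gene, and in Abca12, a lipid transporter known from skin. The others were Epb4.1l4a (3 of 9 within the gene), Cdkal1, a tRNA-modifying enzyme (3 of 8), Hmcn1, an extracellular matrix protein (3 of 6), Plcl2, a phospholipase C relative (3 of 5), and Lama2, the laminin subunit that anchors muscle fibres (3 of 5).

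In all, 513 genes had a member within them, 424 of them a single one, and in 162 every distal region within the gene was a member. As only 13 genes held 3 members or more, nearly all of those 162 had fewer than 3 distal regions within them. The 513 were long genes. Among those matched to RefSeq, the median length was 146644 bp, against 58848.5 bp for the 3213 genes that had distal regions within them but no member, and the median number of distal regions within them was 2 against 1. A gene with more distal regions has more that can be a member, so both contrasts follow in part from how the gene groups were formed. The promoters of the same genes were nearly alike in the libraries. Of the 397 with an H2A.Z promoter region, 350 lay over a CpG island, the median signal was 27.2 in TAC and 26.8 in sham, and the median log2 ratio was 0.0078. At 1.5-fold, 2 of the 397 were lower and 2 were higher in TAC, against 0.145% lower and 0.436% higher among all 13763 promoters. The ratio was above 0 for 209 of the 397 (52.6%), against 60.1% of all promoters, whose median log2 ratio was 0.035. Among the genes named above for most members, the Lama2 promoter had the lowest ratio, with 13.5 in TAC and 18.3 in sham and no CpG island. That of Plcl2 had the highest, with 27.8 in TAC and 25.8 in sham.

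Gene lists of the heart were read next, each against the 6.58% of all distal regions that were members. A region counts for a list where the table names a gene of the list beside it. The intercalated disc and costamere list had 14 members among 79 distal regions (17.7%), in Sorbs2, Lama2, Parva, Ank3, Dtna and Lims1. The calcium handling and ion channel list had 10 of 70 (14.3%), in 8 genes. Sarcomere and Z-disc genes had 3 of 45 (6.67%), near the background. Over the 3 lists of cardiac muscle genes together 27 of 194 were members (13.9%) and 1 was higher in TAC, and their median log2 ratio was -0.20, against -0.04 over all distal regions. The regions of one gene share a locus, and 5, 3 and 3 of the 27 came from Sorbs2, Lama2 and Parva.

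**Figure D3:**
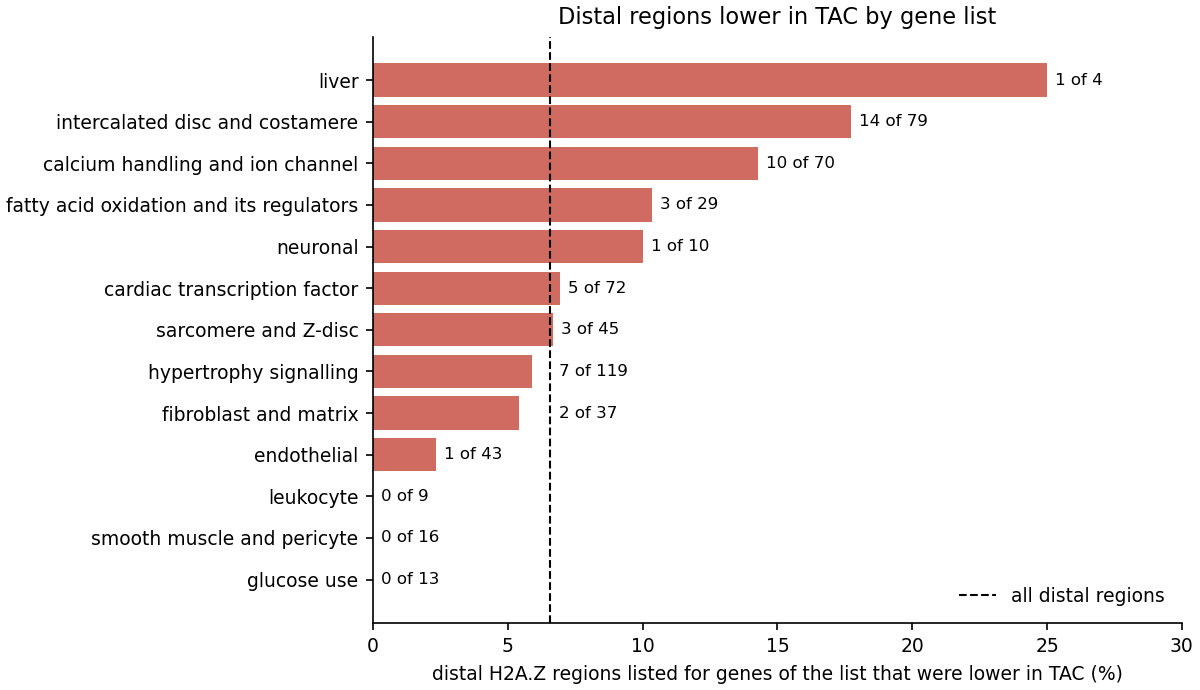
Percentage of the distal H2A.Z regions listed for the genes of each list that were lower in TAC by 1.5-fold, with the counts beside the bars. The dashed line is the 6.58% of all distal regions. The intercalated disc list (17.7%) and the calcium and ion channel list (14.3%) lie above it. So do the fatty acid oxidation (10.3%), neuronal (1 of 10) and liver (1 of 4) lists, the last with the highest share. The endothelial list (2.33%, 1 of 43) is among those below it.

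Parva encodes alpha-parvin, which links integrins to actin. Its member within the gene had 9.98 in TAC and 15.6 in sham, and of 2 adjoining regions downstream one had 10.2 in TAC and 15.97 in sham and the other 7.83 in TAC and 12.6 in sham. Kcnd3, the gene of the transient outward potassium channel Kv4.3, had members 87.2 and 149 kb from its start. The nearer one had 11.6 in TAC and 18.7 in sham, and the farther one 5.79 in TAC and 11.7 in sham. Kcnip2, the gene of the subunit that pairs with Kv4.3, had 1 member 10.6 kb upstream, with 7.46 in TAC and 12.1 in sham. Cacna2d1 and Cacnb2 encode accessory subunits of the L-type calcium channel. Cacna2d1 had members at 7.40 in TAC and 11.8 in sham and at 7.08 in TAC and 12.3 in sham, and the one of Cacnb2 had 9.96 in TAC and 16.5 in sham. Other genes of this list with members were Slc8a1, the sodium-calcium exchanger, Camk2d, a calcium-dependent kinase, and the potassium channel gene Kcnj2. Channel pore and accessory subunits were thus both represented, while Cacna1c, the pore of the L-type channel, had 1 distal region and no member.

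Of the sarcomere list, the members belonged to Ankrd1, Lmod2 and Myl4. Ankrd1 encodes a stress-responsive ankyrin protein of the sarcomere, and its member within the gene, at chr19:36114558-36116159, had 3.78 in TAC and 11.8 in sham. Lmod2, an actin filament elongation factor, had 9.62 in TAC and 15.9 in sham upstream of its start, where the peaks of 28 in TAC and 30 in sham were nearly level. Myl4, the atrial myosin light chain, had 9.84 in TAC and 15.7 in sham. Ttn, Myh7, Tnnt2, Ryr2, Ppargc1a, Anp32e and Ppp2ca each had 1 listed distal region, which was not a member. Myh6, Actn2, Nppa, Nppb, Gata4, Tbx20, Pdk4, H2afz and H2afv had no listed distal region and so could hold none. The cardiac transcription factors had 5 of 72 (6.94%). These were 2 within Nfib, at 8.12 in TAC and 13.2 in sham and at 6.36 in TAC and 11.6 in sham, and 1 each for Mef2a, Mef2c and Zfpm2. For Mef2a the values were 7.14 in TAC and 12.6 in sham.

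Fatty acid oxidation genes had 3 members of 29 (10.3%), with 2 in Esrrg, the nuclear receptor that drives oxidative metabolism genes, and 1 by the thioesterase gene Acot2. The Esrrg regions had 7.70 in TAC and 12.9 in sham, and 5.77 in TAC and 10.2 in sham. Genes of glucose use had 0 of 13. Hypertrophy signalling had 7 of 119 (5.88%), 1 each in Adra1a, Adra1b, Plcb1, Pde1c, Pde3a, Pde4d and Grk5. The alpha-adrenergic receptor gene Adra1a had 8.32 in TAC and 13.1 in sham, and Plcb1, a phospholipase downstream of such receptors, had 7.51 in TAC and 13.2 in sham. Both signalling and transcription factor lists were thus near the background share.

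Among markers of the other cell types, fibroblast and matrix genes had 2 of 37 (5.41%), endothelial genes 1 of 43 (2.33%), smooth muscle and pericyte genes 0 of 16 and leukocyte genes 0 of 9. The median log2 ratio over all distal regions of a list was 0.06 for endothelial, 0.06 for smooth muscle, -0.17 for fibroblast and -0.19 for leukocyte genes, against -0.25 for sarcomere, -0.21 for intercalated disc and -0.11 for calcium and channel genes. The fibroblast members were in Tgfb2, a growth factor, at 5.23 in TAC and 11.4 in sham, and in Ltbp1, which holds such factors in the matrix, at 5 in TAC and 11.1 in sham. The endothelial one was in Erg, a transcription factor of vessel cells, at 8.30 in TAC and 13.7 in sham. Neuronal genes had 1 of 10, in Nrxn3, and liver genes 1 of 4, over Ttr, where the peak was 24 in TAC and 22 in sham. What a shift in cell types contributed to these shares was not tested.

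ANP32E was read at the same places as a separate antibody. It overlapped 75 of the 1193 regions (6.29%), by 1 bp or more, and 1938 of the other distal regions (11.7%). Of the 75 ANP32E regions at members, 64 (85.3%) were lower in TAC by 1.5-fold, against 23.8% of all 8444 ANP32E regions, 47.7% of the distal ANP32E regions and 44.4% of the 2088 at other distal H2A.Z regions. The median ANP32E signal at members was 3.15 in TAC and 7.37 in sham, and at the others 5.39 in TAC and 7.80 in sham. All 75 had a ratio below 0, against 85.3% at the others, and 74 had been called in sham only, against 76.1%. A call in sham alone itself favours a ratio below 0. The ANP32E table as a whole was shifted, with a median log2 ratio of -0.26. After centring on that median, 50 of the 75 (66.7%) were past the threshold. The shares given above for other ANP32E regions were not centred, so they cannot be set against this 66.7%.

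**Figure D4:**
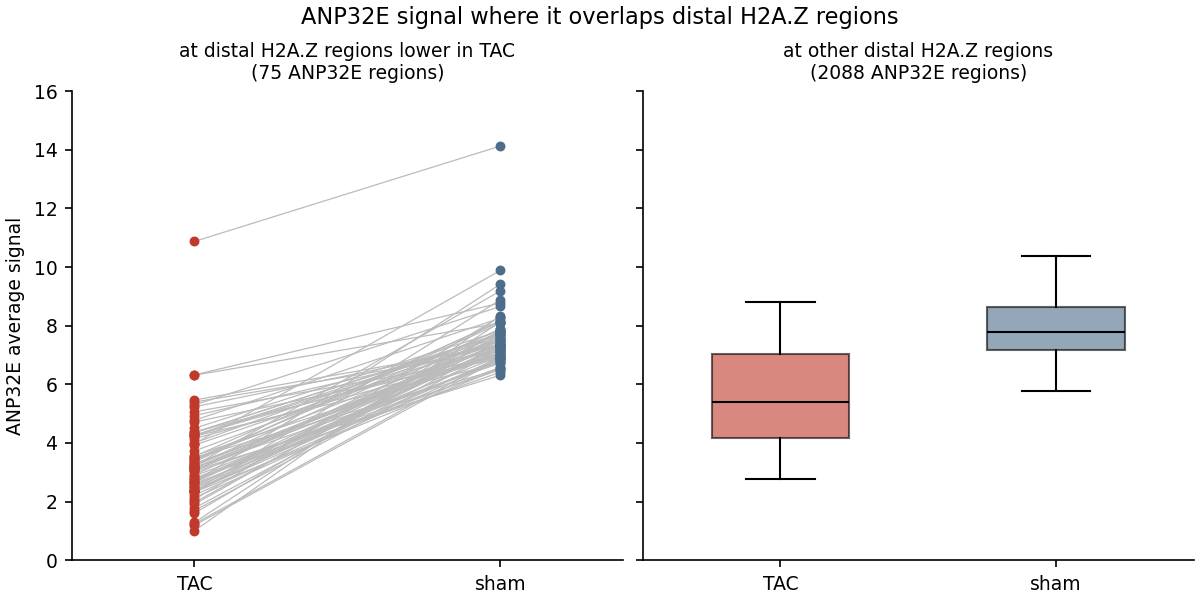
Average ANP32E signal in TAC and sham at the 75 ANP32E regions overlapping distal H2A.Z regions lower in TAC (left, 1 point per region and library, lines join the same region) and at the 2088 overlapping other distal H2A.Z regions (right; box, quartiles and median; whiskers, 5th to 95th percentile). Every line on the left runs downward towards TAC, with medians of 3.15 in TAC and 7.37 in sham.

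Strength of H2A.Z moved with this share. At other distal regions, ANP32E was lower by 1.5-fold in 24 of 28 (85.7%) in the weakest decile of H2A.Z signal and in 25.9% of the strongest. At members the corresponding figure was 17 of 17 in the weakest decile, and in decile 7 it was 9 of 9 against 49.7% at the others. In decile 3 the shares were 72.7% and 72.3%. Within the weaker 50% of distal regions, 48 of 57 (84.2%) at members stood against 69.6% at the others. There the overlap itself was 5.51% for members against 4.63% for the others. The counts per decile at members were 0 to 17, with none in the strongest decile, and the difference that remains at equal strength was not tested.

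The member with the strongest overlapping ANP32E region lay within Ppp1r10, a regulatory subunit of protein phosphatase 1, at chr17:35918158-35920225. Its start window is printed above, and its H2A.Z signal was 8.20 in TAC and 13.6 in sham. The ANP32E region, with 10.9 in TAC and 14.1 in sham, was wider, at chr17:35915460-35920325. It also covered the listed start of Ppp1r10, outside the member, so its signal is not that of the member alone. The listed starts of the miRNA gene Mir1894 and of Ppp1r10 were 1302 and 1995 bp away, so the region lies close to annotated starts for a distal one. In Ctnnd1, the gene of p120 catenin at cell junctions, ANP32E was 6.32 in TAC and 8.77 in sham. In Fkbp5 it was 6.31 in TAC and 8.09 in sham, and in a region 27.5 kb from Fxr1, an RNA-binding protein of muscle, 5.30 in TAC and 8.66 in sham. Of these 4, the one near Fxr1 passed 1.5-fold for ANP32E. Its log2 ratio was -0.62, against -0.35 at Ppp1r10, -0.42 in Ctnnd1 and -0.31 in Fkbp5.

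Neighbourhoods where both proteins were lower are shown for Ryr2 and Ankrd1, which were picked after their values had been seen, beside Sorbs2. Ryr2 encodes the calcium release channel of the sarcoplasmic reticulum. Of the 8 H2A.Z regions drawn upstream of its start, 4 were members, 22.8 to 94.4 kb away, at 5.65 to 7.25 in TAC and 10.6 to 13.4 in sham, and all 8 had ratios below 0. None of these 4 members is listed for Ryr2, whose 1 listed distal region had a log2 ratio of -0.28 and was not a member. The neighbouring gene Mtr overlaps part of this span. The 3 ANP32E regions there had 2.66 to 4.77 in TAC and 6.94 to 9.42 in sham, and each passed 1.5-fold.

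Around Ankrd1, 5 of 9 H2A.Z regions were members, 3.69 to 149 kb from its start, at 3.78 to 9.07 in TAC and 11.2 to 16.6 in sham. Of the 2 distal regions listed for Ankrd1 itself, 1 was a member. All 9 H2A.Z regions had ratios below 0, including the region over the gene's own start, with 8.07 in TAC and 13.3 in sham, which is not distal. The 4 ANP32E regions had 2.49 to 3.36 in TAC and 6.59 to 9.19 in sham, all past 1.5-fold. The 3 members farthest from Ankrd1 formed a run of their own, with Pcgf5 as the nearest gene for part of it, and the Gm32027 window printed above lies under the last of them. At Sorbs2 the 7 regions that were not members had log2 ratios from -0.54 to 0.60, and ANP32E was not called.

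**Figure D5:**
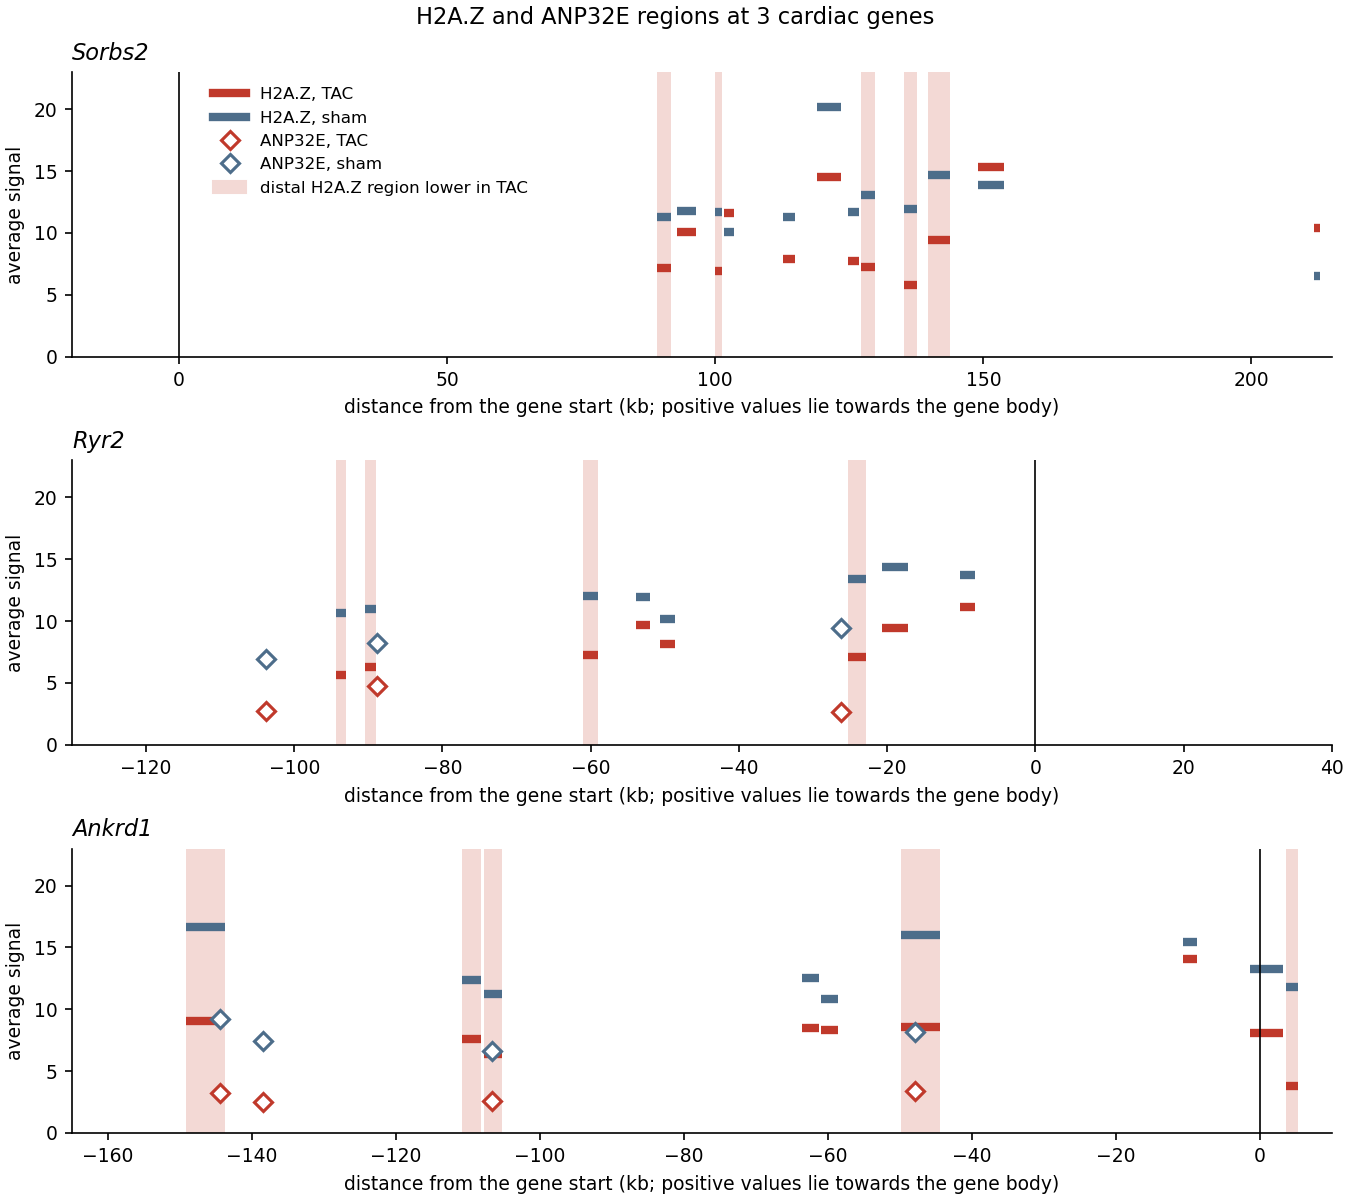
H2A.Z (bars, drawn over the extent of each region) and ANP32E (diamonds at region centres) average signal in TAC and sham against distance from the gene start in kb, for Sorbs2, Ryr2 and Ankrd1; shaded spans are distal H2A.Z regions lower in TAC. All 8 H2A.Z regions at Ryr2 and all 9 at Ankrd1 have lower TAC than sham signal, whereas at Sorbs2 9 of 12 do.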

How the data were processed

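The data are 1 H2A.Z and 1 ANP32E ChIP-seq library each from TAC and sham hearts, plus an input library. The authors deposited 1 region table per antibody, in which intervals of both libraries are merged, with an average and a peak signal per library, call marks, CpG island counts and nearby genes, per the file headers. BWA, SICER and mm10 are named per the submitters' processing notes; versions and the signal's scaling are not stated, and no counting interval is given.

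Ratios were log2((TAC + 1)/(sham + 1)) of average signal, a pseudocount that understates differences of weak regions. Regions overlapped from 1 bp; runs joined members at gaps up to 50 kb. RefSeq (GRCm38.p6) gave coding genes, lengths and start windows; 99.0% of the 513 genes with a member inside matched it. The members and the 13 lists (393 genes) were chosen with earlier results of these data known.

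Named were the 10 strongest and 6 longest members, the 6 runs with most members, the 10 genes with most members inside (predicted loci left out), 2 genes per list, the 4 members with strongest ANP32E, 3 on either side of the threshold, and 19 fixed genes; other names are further members of a list or were chosen after their values were seen. Some list members are not reported here by name. Alternatives were other pseudocounts, peak signal, a 2-fold threshold, subsets by strength or call, other gaps and promoter distances, and centred ratios. The procedures were tested on simulated data. Python 3.11.15, numpy 2.4.6, pandas 2.3.3 and matplotlib 3.10.9 were used.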

Additional observations from a re-analysis of the deposited data

How the results depend on the processing

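No paired analysis was possible because each protein had 1 library per condition. A search for motifs in the regions themselves was not run, since it needs the genome sequence. Of 86 alternative values for 9 results, 49 stayed within the 95% interval of the original value (1.5-fold for the number of members) and 37 did not. That interval treats regions or genes as independent. It serves only as a yardstick for a change and does not measure variation between hearts or libraries. The 37 are given here, and apart from the settings' own effect on which regions qualify, the cause was not tested. A pseudocount of 5 left 228 members, of median length 1890 bp, with 8.77% near another member and 3.09% of the distal regions of cardiac muscle genes as members (1.26% of all distal regions); with 0.1, 31.6% were near another. A 2-fold threshold left 52 members (0.287%), with a median of 1546.5 bp and a sham peak of 21; 3.85% were near another, 3.85% overlapped ANP32E, which was lower in 2 of 2 regions (100%), the promoter ratio was -0.014 and the cardiac muscle share 1.03%. The peak signal gave a sham peak of 28, 20.4% near another, 68.6% of ANP32E lower and a promoter ratio of 0.10. In the stronger 50% of distal regions 159 were members (1.75%), with 2956 bp, a sham peak of 37, 3.77% near another, 11.3% with ANP32E and a cardiac muscle share of 7.07%. Among regions called in both libraries 239 were members (2.06%), with 46.0% in genes, 3146 bp, a sham peak of 33, 8.79% near another, 11.7% with ANP32E, lower in 92.9%, and a cardiac muscle share of 6.31%. In the weaker 50%, added after the data were seen, the median length was 1918 bp and the sham peak 23. The cardiac muscle share there was 21.1%, against 11.4% of all distal regions within that 50%. Within 20 and 100 kb, 18.4% and 34.8% of members were near another, and centring put ANP32E at 66.7%. Thus, wherever both are given here, the cardiac muscle share exceeded the share of all distal regions of the same setting or subset, while its size varied. Of 95 named members, 14 passed the threshold with a pseudocount of 5, 95 with 0.1 and 48 by peak signal (exact 1.5-fold ties not counted), where the Ttr region turned, at a log2 ratio of 0.12.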
